A study of Mus musculus with 14 samples.

Results

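Acyl-CoA thioesterases (ACOTs) were examined in RNA-seq of mouse hepatocellular carcinoma (HCC) cells that lacked 1 or both of the enzymes supplying acetyl-CoA outside the mitochondria. The family was taken by symbol, as the 10 genes Acot1, Acot2, Acot3, Acot4, Acot7, Acot8, Acot9, Acot11, Acot12 and Acot13 among the 24972 gene symbols of the deposited normalized counts. Of these 10 genes, 6 reached the mean of 10 normalized counts that was required for testing and were tested among 12711 genes. Another 2 were above 0 but under that level, and 2 were listed at 0 in every library, as were 5487 of all symbols. The 14 poly(A) libraries came from 4 cell populations, with 4 libraries of WT, 4 of ACLY KO, 3 of ACSS2 KO and 3 of DKO1, which lacks both enzymes. The WT cells (line D42V) came from a diethylnitrosamine-induced tumor of Acly f/f mice and carried an empty LentiCRISPR v2 vector. The ACLY KO cells (D42C4V) had been through adenoviral Cre and single-cell cloning and carried the same empty vector. The ACSS2 KO (D42 Sg2-3) and DKO1 (D42C4 Sg2-2) cells carried the vector with a guide RNA to the first exon of ACSS2 and were each 1 single-cell clone. All had been in DMEM with 10% calf serum for 24 hours. Genotype and clone cannot be told apart in this design, the experiment was not independently repeated, and the spread between libraries may be technical.

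Acyl-CoA thioesterases hydrolyze the thioester bond of an acyl-CoA and release a free fatty acid and coenzyme A, the reverse of the step catalyzed by acyl-CoA synthetases. Type I enzymes (Acot1 to Acot6 in the mouse) have an α/β-hydrolase fold, sit in a gene cluster on chromosome 12, and are found in the cytosol (ACOT1), the mitochondrial matrix (ACOT2) or peroxisomes. Type II enzymes (ACOT7 to ACOT13) share the hotdog fold and differ in location and in the chain length they cleave. In the liver, Acot1 and Acot2 are known as genes induced by fasting and by ligands of the nuclear receptor PPARα.

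Library totals were between 23565707 and 26946164 normalized counts. The implied depth was between about 19221703 and 33382516 reads. It is a rough estimate that takes the most common low value of each library as 1 read for all genes. Acly fell from 6050 ± 423 normalized counts (SD, n = 4) in WT to 1001 ± 56.1 (SD, n = 4) in ACLY KO, and Acss2 from 237 ± 11.5 (SD, n = 4) in WT to 132 ± 4.88 (SD, n = 3) in ACSS2 KO. Acss2 was at 535 ± 69.1 (SD, n = 3) in DKO1, above WT and below the 718 ± 56.7 (SD, n = 4) of ACLY KO. This is RNA of the targeted gene, and by Western blot the paper found the DKO cells to have no ACSS2 protein left. Hepatocyte markers were low in these cells (summed over 14 markers, 163 to 469 normalized counts a library, with Apoc3 listed at 0). Of 4 cholangiocyte markers, Krt7 and Krt19 had means of at least 3993 in every genotype, Sox9 means of 390 to 723 and Epcam means of 3.05 to 19.7. The 6 stellate cell or fibroblast markers summed to 2102 to 6233 a library. Of 5 fetal liver or HCC markers, Spp1 had means of 14930 to 40611 and the others means of at most 210. Endothelial markers summed to at most 90.6 and leukocyte markers to at most 131. In 4 libraries the values fell with transcript length relative to the mean of their genotype, most strongly in DKO1 replicate 4. There the correlation across 12606 genes between a gene's deviation and its transcript length was -0.69 (Spearman, across genes, which are not independent). It was -0.60 in WT replicate 2, -0.59 in ACLY KO replicate 4 and -0.54 in ACSS2 KO replicate 1. As deviations are from the genotype mean, a negative trend in 1 library pushes the others of its genotype up. The largest positive values were 0.66 and 0.61 in DKO1 replicates 1 and 3, and 0.54 and 0.52 in WT replicates 3 and 4.

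Acot1 (chr12:84009490-84018371, plus strand) and Acot2 (chr12:83987861-83993873, plus strand; both GRCm38) lie side by side and have nearly the same coding sequence, which limits how far 75-base reads can separate them. Their coding sequences of 1260 and 1362 bases were identical at 95.5% of 1239 aligned bases in GENCODE M21. In all, 20.45% of the 75-base windows of the Acot2 transcripts also occur in Acot1. The longest identical run is 273 bases, in the last of 3 exons of both genes, within the coding sequence. It is shown with 9 bases on each side, and capitals mark the 5 letters that differ. The stretch is at chr12:84016997-84017287 in Acot1 and chr12:83992719-83993009 in Acot2, both on the plus strand.
Acot1: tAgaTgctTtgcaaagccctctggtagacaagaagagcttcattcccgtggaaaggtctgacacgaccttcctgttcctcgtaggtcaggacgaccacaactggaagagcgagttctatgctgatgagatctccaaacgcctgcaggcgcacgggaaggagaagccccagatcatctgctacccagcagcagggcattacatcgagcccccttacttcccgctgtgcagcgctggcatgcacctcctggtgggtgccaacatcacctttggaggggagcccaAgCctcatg
Acot2: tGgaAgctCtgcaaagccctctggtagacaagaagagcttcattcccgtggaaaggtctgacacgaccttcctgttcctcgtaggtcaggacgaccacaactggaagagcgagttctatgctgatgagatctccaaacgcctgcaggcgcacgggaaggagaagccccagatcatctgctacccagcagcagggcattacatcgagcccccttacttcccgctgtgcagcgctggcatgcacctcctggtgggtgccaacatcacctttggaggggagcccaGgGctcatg
A read from inside this run cannot be assigned to 1 of the genes, and how the counting treated such reads is not given in the sources used here. Acot3 had 16.0% of its windows in common with other genes (mostly Gm49366, Acot5 and Acot1), Acot1 15.0% and Acot4 1.67%. Acot9 had 5.29% of its windows in common with Acot10, a near-identical copy, and Acot7, Acot8, Acot11, Acot12 and Acot13 had none in common with any other gene.

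The sequences ahead of the first annotated base of Acot1 and Acot2 are shown because both genes rose with ACSS2 loss. They are RefSeq promoter sequences of GRCm38.p6, at chr12:84009252-84009489 for Acot1 and chr12:83987611-83987860 for Acot2, plus strand. Capitals mark CCAAT and GGGCGG on either strand.
Acot1 promoter: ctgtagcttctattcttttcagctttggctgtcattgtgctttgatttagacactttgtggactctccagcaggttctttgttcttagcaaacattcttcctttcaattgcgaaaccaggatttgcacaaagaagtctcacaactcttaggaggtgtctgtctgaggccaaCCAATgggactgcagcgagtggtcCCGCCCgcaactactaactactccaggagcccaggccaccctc
Acot2 promoter: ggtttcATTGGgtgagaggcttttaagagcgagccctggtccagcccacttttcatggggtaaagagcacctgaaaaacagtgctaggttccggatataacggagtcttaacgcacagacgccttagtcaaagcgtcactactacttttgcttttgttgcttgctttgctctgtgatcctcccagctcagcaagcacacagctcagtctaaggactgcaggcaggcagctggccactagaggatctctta
Promoter windows of 300 bases were found for 9 of the 10 members, with Acot13 missing. The DR1 element, the PPAR consensus of 2 direct copies of AGGTCA with 1 base between them, was in none of the 9 on either strand and in 0.0396% of 32851 promoters. A single AGGTCA, which every DR1 also contains, was in 16.3% of all promoters and in those of Acot3, Acot4 and Acot12. CCAAT was in 37.4% of all promoters and GGGCGG in 35.7%. Acot1 had CCAAT at -79 and GGGCGG at -55 from its RefSeq start, and Acot2 had CCAAT at -244. A match describes the letters in the window and is not evidence of binding.

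Levels per kb of exon covered a wide range, and type II members led among the 6 tested. In WT, Acot7 was highest at a mean of 2696 normalized counts per kb, followed by Acot9 at 1534, Acot13 at 629, Acot8 at 189, Acot1 at 115 and Acot2 at 104. The ranges of neighbours in that order did not overlap, except those of Acot1 and Acot2. The same order of the first 3 held in the other genotypes. In ACSS2 KO, Acot1 moved above Acot8, at 228 against 197 per kb. In DKO1, the ranges of Acot7 (2948 to 4564 per kb) and Acot9 (2696 to 3222) overlapped, as did those of Acot8, Acot2 and Acot1 with their neighbours.

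**Figure D1:**
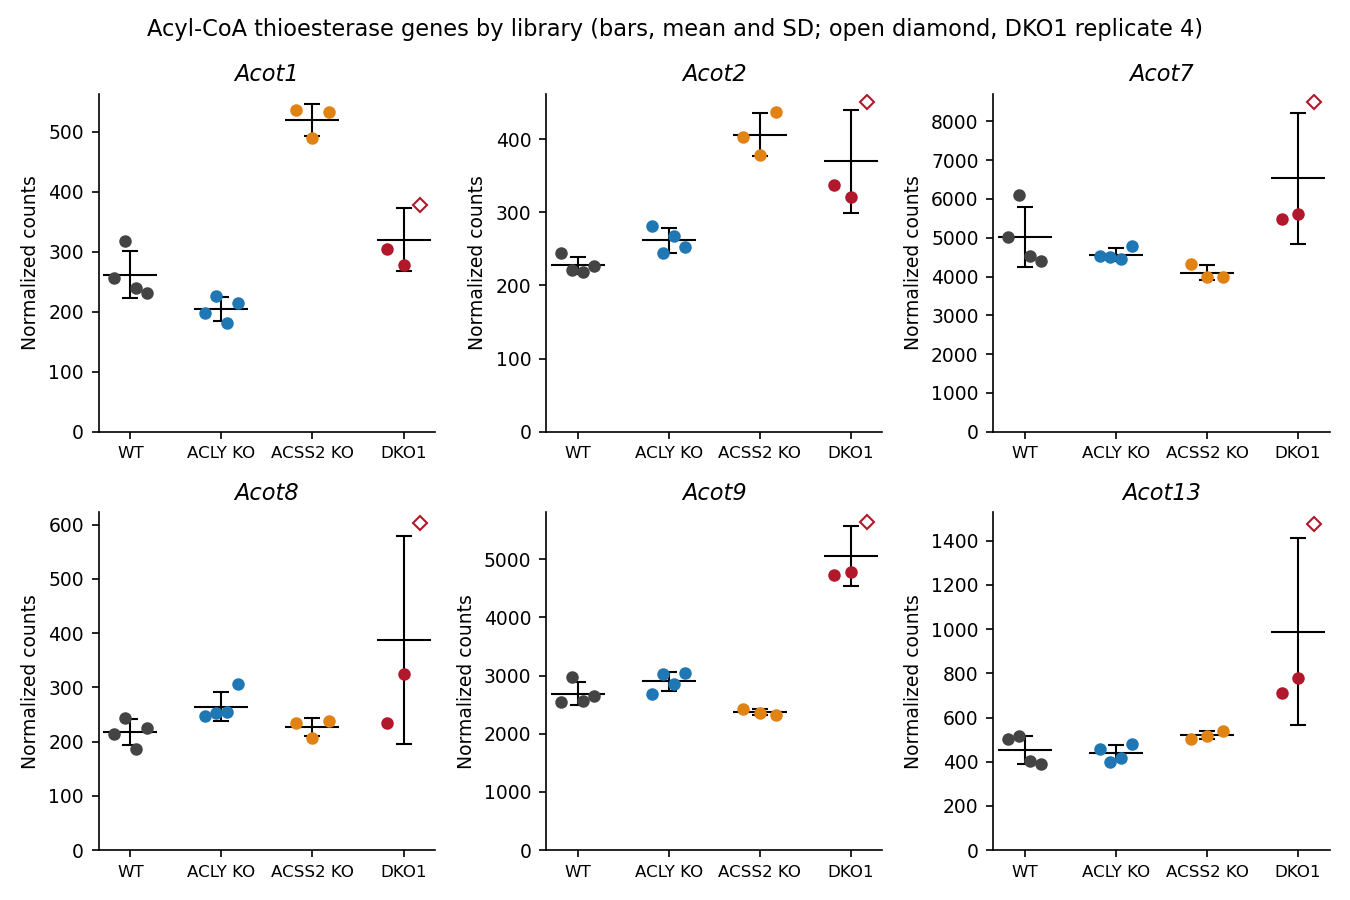
Normalized counts (vertical axes, each from 0) of the 6 tested family members in each library, by genotype. Points are libraries, bars are mean and SD, and the open diamond is DKO1 replicate 4, which was the highest DKO1 library for all 6 genes.

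The comparisons of genotypes share control libraries, so the sets of calls are not independent of each other. A gene was called at an adjusted p under 0.05. Of the 6 tested members, ACLY KO against WT gave 0 higher and 1 lower, where 23.8% of all genes tested were higher and 24.7% lower. ACSS2 KO against WT gave 2 higher and 0 lower (background 15.1% and 11%). DKO1 against WT gave 5 higher and 0 lower (27.9% and 28.1%), and DKO1 against ACLY KO 5 higher and 0 lower (14.3% and 13.6%). DKO1 against ACSS2 KO gave 4 higher and 1 lower (25.9% and 27.8%). The difference of differences, (DKO1 − ACLY KO) − (ACSS2 KO − WT), gave 3 higher and 0 lower (12% and 15.1%). The median log2 fold change of the 6 members was 0.70 in DKO1 against WT and 0.56 in DKO1 against ACLY KO, beside 0.0035 and -0.0052 over all genes tested. None of the 6 tested members passed the study's limits for differential expression (absolute log2 fold change over 1.5 and adjusted p under 0.01). Of all genes tested, 8.8% passed them in ACLY KO against WT, 2.42% in ACSS2 KO against WT and 9.84% in DKO1 against WT. The share was 2.06% in DKO1 against ACLY KO, 11.3% in DKO1 against ACSS2 KO and 4.61% in the interaction. These counts say nothing of the 4 members that could not be tested.

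Ranges of libraries were also compared. Of the 6 members, 2 were higher and 1 lower in ACLY KO than in WT with no overlap between the groups (25.9% and 27.2% of all genes tested), and 2 were higher and 2 lower in ACSS2 KO than in WT (23% and 19.8%). DKO1 did not overlap WT for 3 members, all higher (23.3% of genes higher and 24.3% lower). It did not overlap ACLY KO for 5, all higher (17.4% and 17.2%), nor ACSS2 KO for 3 that were higher and 1 that was lower (28% and 30.2%). DKO1 against ACLY KO was thus the comparison in which the members stood farthest from the background by either count.

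**Figure D2:**
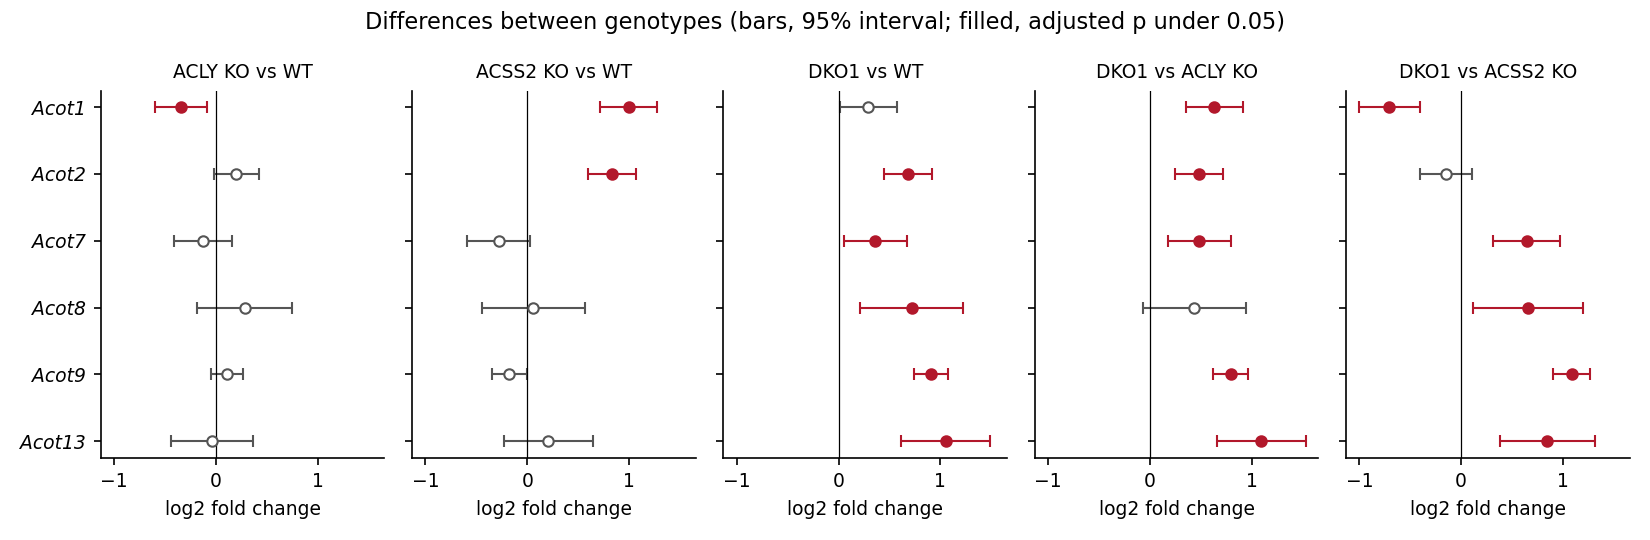
Log2 fold change (horizontal axes) with its 95% interval for the 6 tested members in 5 comparisons. Filled points passed an adjusted p of 0.05. Acot1 and Acot2 stand to the right in ACSS2 KO vs WT, and Acot9 and Acot13 in all 3 comparisons with DKO1.

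Acot1 encodes the cytosolic type I enzyme, which acts on long-chain acyl-CoA. It had 256, 318, 239 and 232 normalized counts in the WT libraries and 198, 226, 181 and 215 in ACLY KO. The ACSS2 KO libraries had 536, 489 and 532, and the DKO1 libraries 304, 278 and 378. Every ACSS2 KO library was above every other library, and every ACLY KO library was below every WT library. Acot1 rose with ACSS2 loss, by a log2 fold change of 0.998 ± 0.129 (SE, adjusted p = 9.1e-05) in ACSS2 KO against WT and of 0.63 ± 0.13 (SE, adjusted p = 0.0029) in DKO1 against ACLY KO. It fell by 0.34 on the log2 scale in ACLY KO against WT (SE 0.12, adjusted p = 0.030) and by 0.71 in DKO1 against ACSS2 KO (SE 0.14, adjusted p = 7.8e-04). DKO1 and WT overlapped, with a log2 difference of 0.29 (95% interval 0.011 to 0.57, adjusted p = 0.072), which was 0.16 (adjusted p = 0.27) without DKO1 replicate 4 and passed without WT replicate 2 (0.39, adjusted p = 0.014). The interaction was not called, but passed without DKO1 replicate 4 (-0.49, adjusted p = 0.036). The change in ACLY KO was lost when libraries were scaled to equal totals (-0.23, adjusted p = 0.077) and when WT replicate 1 or 2 or ACLY KO replicate 1 or 3 was left out (log2 fold change between -0.40 and -0.24 and adjusted p between 0.010 and 0.093 over all libraries left out in turn). In these bulk libraries, a lower level in each cell cannot be told apart from fewer cells that express the gene.

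Acot2 encodes the mitochondrial matrix enzyme of the same type. WT libraries had 244, 221, 219 and 227 normalized counts, and ACLY KO libraries 282, 245, 268 and 252. There were 403, 378 and 436 in ACSS2 KO and 337, 321 and 451 in DKO1. All 6 libraries that lacked ACSS2 were above the 8 that kept it. Acot2 rose by a log2 fold change of 0.83 ± 0.11 (SE, adjusted p = 1.0e-04) in ACSS2 KO against WT, of 0.68 ± 0.11 (SE, adjusted p = 1.6e-04) in DKO1 against WT, and of 0.48 ± 0.11 (SE, adjusted p = 0.0057) in DKO1 against ACLY KO. Every ACLY KO library was above every WT library, but the log2 difference of 0.20 did not pass (95% interval -0.021 to 0.42, adjusted p = 0.13). It passed without DKO1 replicate 4 (0.20, adjusted p = 0.023), in a fit of the 2 groups alone (adjusted p = 0.043) and with equal library totals (0.31, adjusted p = 0.0092). DKO1 and ACSS2 KO overlapped, with a log2 difference of -0.15 (adjusted p = 0.30), and without DKO1 replicate 4 the difference was -0.30 (adjusted p = 0.011). Without that library the interaction passed as well (-0.50, adjusted p = 0.0041).

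The ratio of Acot1 to Acot2 normalized counts was 1.05, 1.44, 1.09 and 1.02 in WT and 1.33, 1.29 and 1.22 in ACSS2 KO. It was 0.703, 0.925, 0.675 and 0.851 in ACLY KO and 0.902, 0.867 and 0.839 in DKO1. All 7 libraries without ACLY were below all 7 libraries with it, with a mean log2 difference of 0.55. It was 0.54 between WT and ACLY KO and 0.56 between ACSS2 KO and DKO1. The ratio was chosen after the values were seen and is given as a description with no test, and both genes share reads, as shown above.

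**Figure D3:**
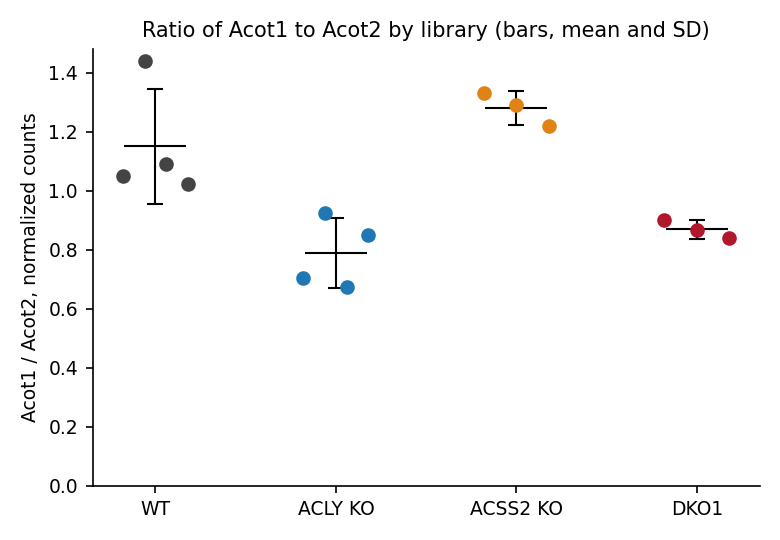
Ratio of Acot1 to Acot2 normalized counts (vertical axis, from 0) in each library, by genotype, with mean and SD as bars. WT libraries lie between 1.02 and 1.44 and ACSS2 KO libraries between 1.22 and 1.33, above the 0.675 to 0.925 of ACLY KO and the 0.839 to 0.902 of DKO1.

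The genes around Acot1 and Acot2 were counted as well. Of the 38 tested genes within 2 Mb of Acot1, 6 were higher and 1 lower in ACSS2 KO against WT, with a median log2 fold change of 0.076, and 1 of them had a log2 fold change at or above that of Acot1. In DKO1 against ACLY KO, 5 were higher and 3 lower, with a median of 0.02.

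Acot9 encodes a mitochondrial enzyme that acts on short-chain and longer acyl-CoA, and lies on the X chromosome (chrX:155262443-155297654, plus strand). It had 2553, 2978, 2568 and 2650 normalized counts in WT, 2690, 3020, 2863 and 3043 in ACLY KO, and 2429, 2362 and 2328 in ACSS2 KO. The DKO1 libraries had 4723, 4785 and 5644. All DKO1 libraries were thus above the other 11, and every ACSS2 KO library was below every WT library. Acot9 rose by a log2 fold change of 0.91 ± 0.08 (SE, adjusted p = 7.0e-07) in DKO1 against WT, of 0.80 ± 0.08 (adjusted p = 1.2e-05) against ACLY KO and of 1.08 ± 0.08 (adjusted p = 2.2e-07) against ACSS2 KO. Neither single loss moved it past the threshold, with log2 differences from WT of 0.11 (adjusted p = 0.23) in ACLY KO and -0.18 (adjusted p = 0.13) in ACSS2 KO. The ACSS2 KO difference passed without DKO1 replicate 4 (adjusted p = 0.036). The effect of ACSS2 loss differed with ACLY status by 0.97 ± 0.11 (SE, adjusted p = 3.7e-05). This interaction stayed between 0.89 and 1.02 when each library was left out in turn.

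Acot13, the hotdog-fold enzyme associated with mitochondria that prefers long-chain acyl-CoA, lies on chromosome 13 (chr13:24817948-24831540, minus strand) and has the shortest exon length of the members, 721 bases. WT libraries had 504, 515, 403 and 392 normalized counts, ACLY KO libraries 456, 400, 418 and 482, and ACSS2 KO libraries 504, 518 and 539. The DKO1 libraries had 713, 778 and 1476. All DKO1 libraries were above the other 11, with replicate 4 far above replicates 1 and 3. The log2 fold change in DKO1 was 1.05 ± 0.20 (SE, adjusted p = 6.4e-04) against WT, 1.09 ± 0.20 (adjusted p = 0.0014) against ACLY KO and 0.85 ± 0.22 (adjusted p = 0.0050) against ACSS2 KO. Without DKO1 replicate 4, the estimate against WT was 0.73, against ACLY KO 0.76 and against ACSS2 KO 0.52, and all 3 still passed. In a fit of DKO1 and ACSS2 KO alone the adjusted p was 0.054. Differences of the single knockouts from WT were -0.04 (adjusted p = 0.88) for ACLY KO and 0.21 (adjusted p = 0.51) for ACSS2 KO. The interaction was 0.89 ± 0.29 (SE, adjusted p = 0.035), and it was lost when any of 8 of the 14 libraries was left out (WT replicates 1 and 2, ACLY KO replicates 1, 2 and 3, and each ACSS2 KO library), with adjusted p up to 0.073.

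Acot7 encodes the cytosolic long-chain enzyme best known from brain (chr4:152178134-152271855, plus strand) and was the most abundant member. It had 5014, 6100, 4528 and 4413 normalized counts in WT, 4519, 4514, 4440 and 4796 in ACLY KO, 4317, 3981 and 3980 in ACSS2 KO, and 5484, 5613 and 8489 in DKO1. DKO1 overlapped WT through WT replicate 2, and was above every ACLY KO and ACSS2 KO library. Acot7 rose in DKO1 by a log2 fold change of 0.64 ± 0.15 (SE, adjusted p = 0.0031) against ACSS2 KO, of 0.49 ± 0.14 (adjusted p = 0.023) against ACLY KO and of 0.36 ± 0.14 (adjusted p = 0.045) against WT. In ACSS2 KO the log2 difference from WT did not pass (-0.28, 95% interval -0.59 to 0.027, adjusted p = 0.18). Without DKO1 replicate 4, which is in neither group, the estimate was the same and it passed (adjusted p = 0.025). The call against WT in DKO1 was close to the threshold and was lost in 11 of the 14 fits that left out a library, with an estimate of 0.16 (adjusted p = 0.20) without DKO1 replicate 4. It was kept only without WT replicate 2 or DKO1 replicate 1 or 3. The call against ACLY KO was lost without DKO1 replicate 4 (0.28, adjusted p = 0.053) and without ACLY KO replicate 1, 2 or 3 (adjusted p up to 0.054). In a fit of the 2 groups alone, adjusted p was 0.16 against WT and 0.075 against ACLY KO. The interaction, 0.77 ± 0.20 (SE, adjusted p = 0.013), stayed past the threshold whichever library was left out (0.56 to 0.88).

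Acot8 encodes the broad peroxisomal thioesterase (chr2:164792765-164804882, minus strand), and 243 of its 1152 exonic bases overlap Snx21 on the opposite strand. The library kit keeps strand, but whether strand was used in counting is not given in the sources used here. It had 214, 245, 187 and 225 normalized counts in WT, 247, 252, 254 and 306 in ACLY KO and 234, 208 and 238 in ACSS2 KO. The DKO1 libraries had 234, 325 and 603, a spread that overlapped every other genotype. Acot8 passed in DKO1 against WT, with a log2 fold change of 0.72 ± 0.23 (SE, adjusted p = 0.019), and against ACSS2 KO, with 0.66 ± 0.25 (adjusted p = 0.040), but not against ACLY KO (0.44, 95% interval -0.067 to 0.94, adjusted p = 0.19). Without DKO1 replicate 4 the values were 0.35 against WT, which still passed, 0.28 (adjusted p = 0.12) against ACSS2 KO and 0.063 (adjusted p = 0.78) against ACLY KO. Against ACLY KO it passed without DKO1 replicate 1 (0.74, adjusted p = 0.015). ACLY KO itself did not pass against WT (0.28, adjusted p = 0.31), but did without DKO1 replicate 4 (0.28, adjusted p = 0.048). Leaving out WT replicate 3 ended the call of DKO1 against WT (adjusted p = 0.0503). For DKO1 against ACSS2 KO, 9 of the 14 libraries, when left out, ended the call. They were WT replicates 1 and 4, ACLY KO replicates 1, 2 and 3, each ACSS2 KO library and DKO1 replicate 4. In a fit of the 2 groups alone, adjusted p was 0.091 against WT and 0.17 against ACSS2 KO.

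The values of several members in DKO1 changed when the length trend was removed. After each library was corrected for its trend on transcript length, Acot13 in DKO1 was at 749, 746 and 715 in replicates 1, 3 and 4, so the 3 libraries came together. The same correction left Acot8 at 246, 317 and 345 and Acot7 at 5676, 5600 and 6308. Acot9 was at 4902, 4759 and 4039, still above all other libraries. The log2 fold change in DKO1 against WT became 0.60 for Acot13 (adjusted p = 1.3e-05), 0.38 for Acot8 (adjusted p = 0.0064), 0.18 for Acot7 (adjusted p = 0.011), 0.70 for Acot9 (adjusted p = 4.6e-07), 0.56 for Acot2 (adjusted p = 5.5e-05) and 0.19 for Acot1 (adjusted p = 0.083). All 6 corrected estimates were smaller than those from the values as deposited, and the same 5 members passed. With the correction, the share of all genes called in DKO1 against WT rose from 56.04% to 65.65%. In ACSS2 KO against WT that share rose from 26.05% to 41.15%. In ACSS2 KO against WT, corrected values also passed for Acot7 (-0.30, adjusted p = 7.6e-04), Acot9 (-0.19, adjusted p = 0.037) and Acot13 (0.28, adjusted p = 0.012). For Acot13 the interaction became 0.45 (adjusted p = 0.0063), and it passed below 0 for Acot1 (-0.40, adjusted p = 0.024) and Acot2 (-0.40, adjusted p = 0.019).

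**Figure D4:**
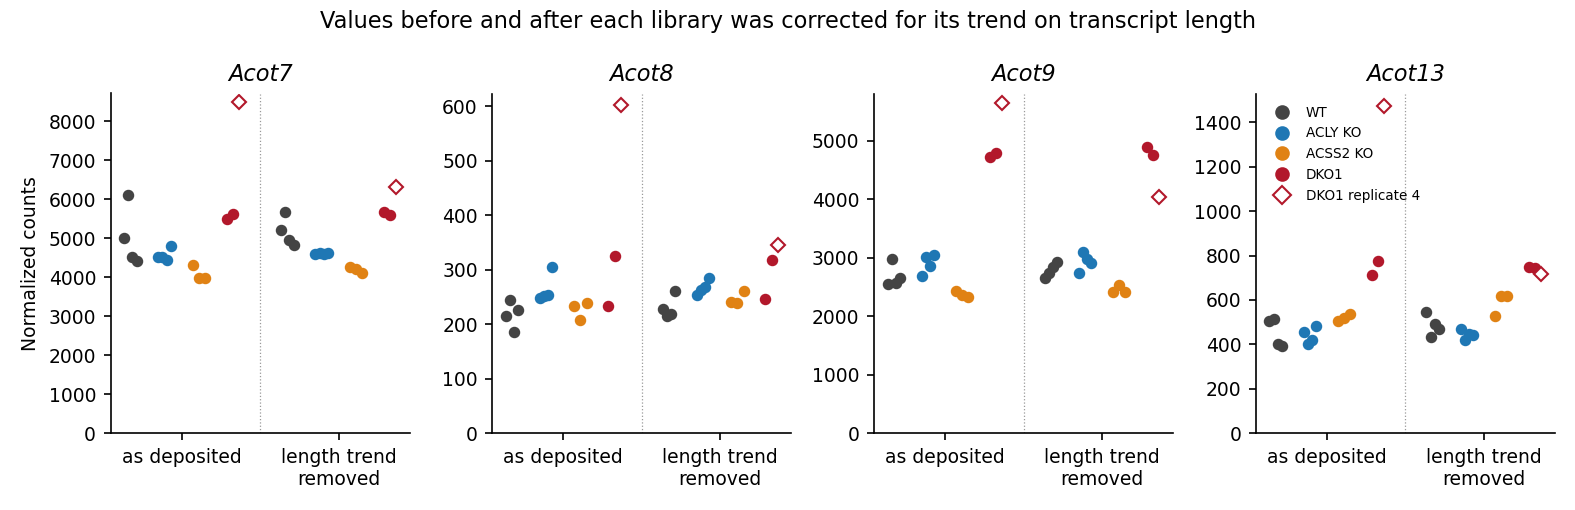
Normalized counts (vertical axes, from 0) of 4 members in each library, as deposited (left of the dotted line) and after the trend on transcript length was removed from each library (right). Colors mark genotypes and the open diamond DKO1 replicate 4, which falls from 1476 to 715 for Acot13 and from 603 to 345 for Acot8.

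Genes near these members were compared between DKO1 and WT, and then between DKO1 and ACLY KO. Of the 29 tested genes within 2 Mb of Acot7, 17 were higher and 1 lower in DKO1 against WT, with a median log2 fold change of 0.55, above the 0.36 of Acot7 itself. Only 5 tested genes lay within 2 Mb of Acot9, of which 4 were higher and 1 lower (median 0.78), and its neighbours Sat1 and Prdx4 had log2 fold changes of 1.27 (adjusted p = 3.1e-04) and 0.78 (adjusted p = 0.031). Around Acot13, 11 of 23 genes were higher and 6 lower (median 0.67), and 7 of the 23 were histone genes, with a median of 2.96. Of the other 16, 4 were higher and 6 lower. The 45 genes around Acot8 had a median of 0.26, and the 38 around Acot1 one of 0.06. In DKO1 against ACLY KO, 14.3% of all genes tested were higher and 13.6% lower. There 11 of the 23 genes within 2 Mb of Acot13 were higher and 0 lower (median 0.49). Around Acot9 3 of 5 were higher and 0 lower, around Acot7 10 of 29 and 1, and around Acot8 5 of 45 and 5. Within 10 Mb, the counts were 53 higher and 0 lower of 87 for Acot13, 33 and 1 of 56 for Acot9, and 57 and 5 of 132 for Acot7. These windows were chosen after the values were seen. The part of the region or of the clone in the changes of Acot7, Acot9 and Acot13 was not tested.

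**Figure D5:**
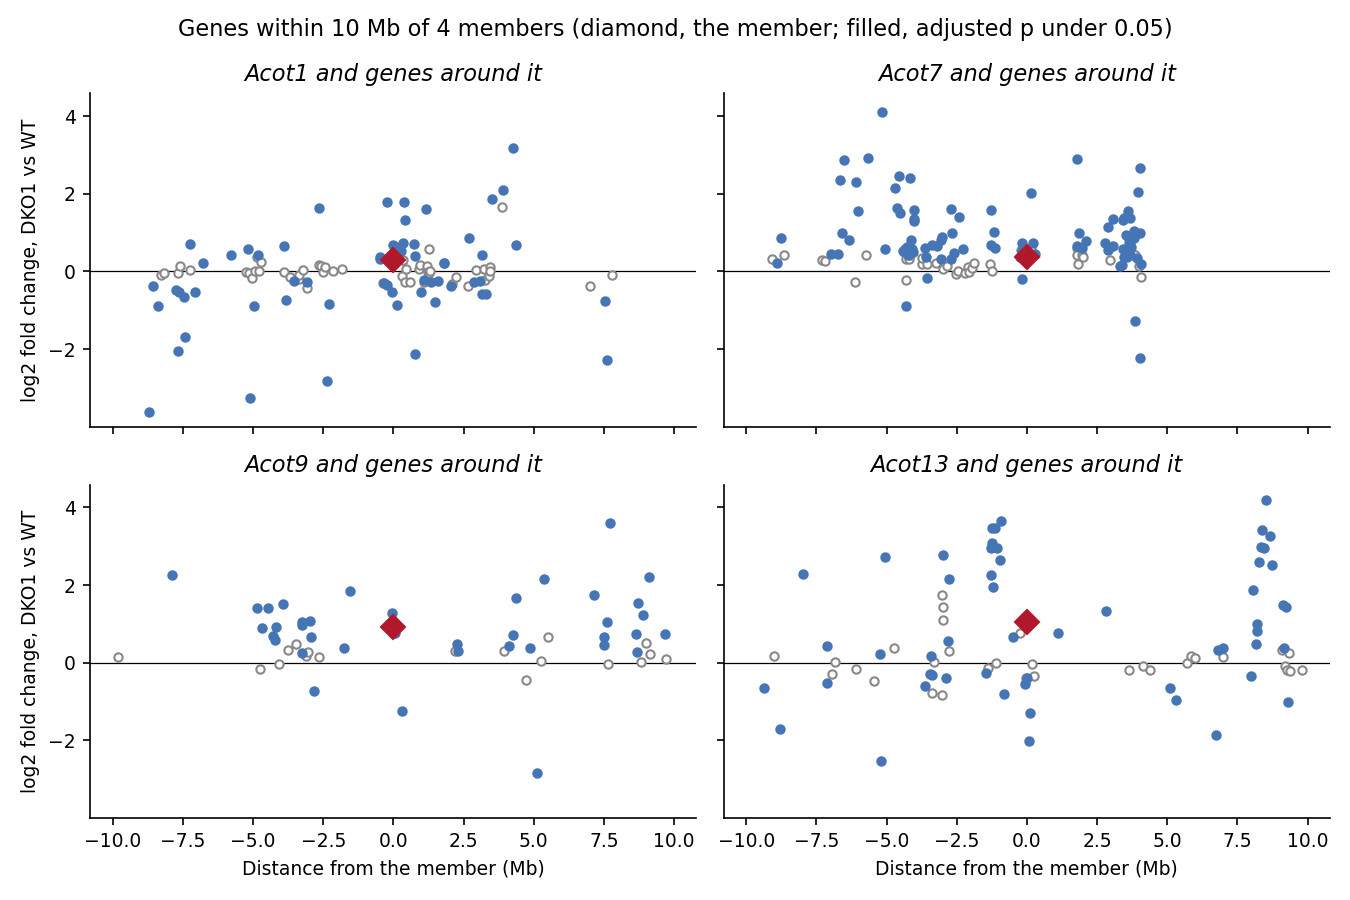
Log2 fold change in DKO1 vs WT (vertical axes) of tested genes within 10 Mb of Acot1, Acot7, Acot9 and Acot13, by distance in Mb (horizontal axes). Diamonds are the members, and filled points passed an adjusted p of 0.05. Most genes around Acot7 lie above 0 (88 higher and 5 lower of 132), while those around Acot1 lie on both sides (25 higher and 33 lower of 109).

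The remaining members were at or near 0. Acot12, the cytosolic enzyme that hydrolyzes acetyl-CoA and is typical of hepatocytes (chr13:91741512-91786148, plus strand), had 2.39, 2.82, 1.71 and 1.65 normalized counts in ACLY KO and 0, 4.84 and 1.12 in DKO1, and was listed at 0 in every WT and ACSS2 KO library. It was thus seen only in cells without ACLY, at a level of a few reads. No fold is given, since WT and ACSS2 KO were at 0, and the study placed Acot12 in a gene cluster chosen on these libraries. Acot11, the thioesterase of brown fat (chr4:106744555-106804998, minus strand), was above 0 in 3 of 4 ACLY KO, 2 of 3 ACSS2 KO, 1 of 3 DKO1 and 1 of 4 WT libraries, and never above 2.57. Of its 5782 exonic bases, 1263 overlap Fam151a on the opposite strand. The peroxisomal Acot3 and Acot4 (chr12:84052144-84060402 and chr12:84038379-84048601, plus strand) were listed at 0 in all 14 libraries. Their neighbours Acot5 and Acot6 were also at 0, as were 5487 of all 24972 symbols. None of 20 housekeeping genes was, but their lowest value was 822, so they say nothing of genes at low levels.

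Other thioesterase and coenzyme A hydrolase genes changed in both directions. Of a list of 18, 11 were tested. In DKO1 against WT 5 were higher and 2 lower (27.9% and 28.1% of all genes tested), with a median log2 fold change of 0.37. The higher genes were Nudt19 (1.17, adjusted p = 6.5e-04), a peroxisomal coenzyme A diphosphatase, Hibch (0.99, adjusted p = 5.6e-06), the 3-hydroxyisobutyryl-CoA hydrolase of valine breakdown, the lysosomal thioesterases Ppt2 (0.91, adjusted p = 8.4e-09) and Ppt1 (0.37, adjusted p = 1.2e-04), and Them6 (0.66, adjusted p = 3.1e-04). The lower genes were Nudt7 (-0.82, adjusted p = 7.7e-04), also a peroxisomal coenzyme A diphosphatase, and Them4 (-0.50, adjusted p = 0.0043). ACLY KO against WT gave 6 higher and 1 lower (23.8% and 24.7%) and ACSS2 KO against WT 0 and 1 (15.1% and 11%). In DKO1 against ACLY KO, where 5 ACOT genes passed, 1 gene of this list was higher and 1 lower (14.3% and 13.6%).

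Acyl-CoA synthetases make the substrates of the thioesterases. Of 18 listed, 11 were tested. DKO1 against WT gave 8 higher and 3 lower (median 0.95), where 27.9% of all genes tested were higher and 28.1% lower. ACLY KO against WT gave 9 and 2 (23.8% and 24.7%), and ACSS2 KO against WT 4 and 3 (15.1% and 11%). DKO1 gave 5 and 4 against ACLY KO (14.3% and 13.6%), and 7 and 3 against ACSS2 KO (25.9% and 27.8%). Those with the smallest adjusted p in DKO1 against WT were Acsf2 (log2 fold change -2.04, adjusted p = 1.3e-08), Acsf3 (-1.67, adjusted p = 3.4e-08), which acts on malonate, Acsbg1 (1.29, adjusted p = 3.3e-07) and Acss2 itself (1.16, adjusted p = 3.6e-07). Of these 4, 2 fell and 2 rose. Acss2 is the gene targeted in DKO1, so its RNA, counted among the higher genes, does not stand for enzyme there.

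PPARα target genes, the class to which Acot1 and Acot2 are assigned in liver, were called in both directions. Of 26 listed, 17 were tested. In ACSS2 KO against WT, where Acot1 and Acot2 rose, 2 were higher and 2 lower (15.1% and 11% of all genes tested). In DKO1 against ACLY KO, where both rose as well, 4 were higher and 1 lower (14.3% and 13.6%). In DKO1 against WT, where Acot2 rose, 7 were higher and 6 lower (27.9% and 28.1%). The median log2 fold change was 0.12 in ACSS2 KO against WT, 0.03 in DKO1 against ACLY KO and 0.09 in DKO1 against WT. Angptl4, a secreted lipoprotein lipase inhibitor, fell in DKO1 against WT (-2.23, adjusted p = 3.9e-08), while the pantetheinase Vnn1 (0.96, adjusted p = 7.2e-08), the carnitine palmitoyltransferase Cpt2 (0.78, adjusted p = 3.8e-07) and the medium-chain dehydrogenase Acadm (1.14, adjusted p = 2.1e-06) rose. In ACSS2 KO against WT, Angptl4 fell by 1.90 on the log2 scale (adjusted p = 8.5e-07) and Cpt2 rose by 0.31 (adjusted p = 0.0028). The other called genes there, named after their values were seen, were the hormone Fgf21, which rose by 2.34 (adjusted p = 0.0016), and the lipid droplet protein gene Plin2, which fell by 0.47 (adjusted p = 3.6e-04).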

How the data were processed

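Poly(A) RNA of 14 cultures was sequenced with a strand-specific kit as 75-base single-end reads. The authors mapped them to GRCm38 with STAR and used Illumina's DESeq2 software (version 1.0.1). The annotation and the counting are not given in the sources used here. The deposited values are a signal per gene: estimated counts that the authors scaled by DESeq factors varying by gene and library. As whole reads could not be had, no counting interval is given, and precision comes from the spread between libraries. A further 26 symbols had been turned into dates and were left unmatched.

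Genotypes were taken from the sample labels. Values were tested in R 4.3.3 with limma 3.58.1 (intensity trend) on log2(value + 1), which understates changes of low genes. The spread was estimated over all 14 libraries, and p-values were adjusted over 12711 genes by the Benjamini-Hochberg method. In simulated data for DKO1 against WT, 200 of 12711 genes were changed by 1 on the log2 scale. Of the changed genes 151 were called, and 7 unchanged genes were called as well. The simulated noise was independent between genes and libraries and had no length trend. It therefore does not give the rate of false calls in these libraries. The family members, the gene lists and the tests were chosen with earlier results of these data known. All 10 members were named. In the list of other thioesterases those that passed were named, and in the other lists the 4 smallest adjusted p-values in DKO1 against WT. Alternatives covered the added constant, the filter, the limits, a replicate block, each library left out, the samples fitted, the trend, the scaling and transcript length. Gene positions are from GENCODE M21.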

Additional observations from a re-analysis of the deposited data

Results flagged for a closer look

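In 15 groups of 4 libraries examined for an outlying value, 2 had one, and chance flags about 1 in 20. Acot8 was at 306 normalized counts in ACLY KO replicate 4, above the 247 to 254 of the other ACLY KO libraries (its gap to them was 0.885 of the group's range), and this library is among the 4 with a negative length trend. Acot11 was at 1.17 in WT replicate 4 and at 0 in the other WT libraries. Where all other values are 0, any value above 0 is flagged, so the rate of 1 in 20 does not apply to it.

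The effect of ACSS2 loss differed with ACLY status, by a test of the interaction, for 3 of the 6 tested members. The difference was 0.77 on the log2 scale for Acot7 (adjusted p = 0.013), 0.97 for Acot9 (adjusted p = 3.7e-05) and 0.89 for Acot13 (adjusted p = 0.035), where 12% of all genes tested had a positive interaction past the threshold.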

How the results depend on the processing

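The number of members called was least stable in ACLY KO against WT: it was 1 of 6 in the values reported (Acot1, lower), 2 of 8 with no filter on low values (Acot1 lower, Acot12 higher), 2 higher with equal library totals (Acot2 and Acot9, with the call of Acot1 lost), 1 higher and 1 lower with quantile normalization, 2 lower with the length correction, 3 with only the groups compared (2 higher), 4 without DKO1 replicate 4 and WT replicate 2 together (3 higher), and 0 to 3 with each library left out. The share of all genes tested that was called there was 48.52% in the values reported. It was 48.54% with equal totals, 60.78% with the length correction and 68.99% without both libraries. In ACSS2 KO against WT the count of 2 became 5 without both libraries or with the length correction. Of these 5, 3 were higher, and Acot7 and Acot9 were lower. The count was 2 to 4 with each library left out. The share of all genes called rose as well, from 26.05% to 48.06% without both libraries and to 41.15% with the length correction. In DKO1 against WT and in DKO1 against ACSS2 KO the count of 5 became 3 with only the groups compared. The share of all genes called fell with it, from 56.04% to 40.64% and from 53.68% to 38.08%. With each library left out the count was 3 to 6 in DKO1 against WT. It was 4 to 6 in DKO1 against ACLY KO and 4 to 5 in DKO1 against ACSS2 KO. The interaction count of 3 became 5 without both libraries, with equal totals or with the length correction. Of these 5, 3 were above 0, and Acot1 and Acot2 were below. The count was 2 to 5 with each library left out. The share of all genes called was 27.08% in the values reported and 27.23% with equal totals. It was 44.3% without both libraries and 38.97% with the length correction. Under the study's limits each of the 6 counts, over the tested members, was 0. The causes were not tested. With equal totals the median of all genes was 0.10 in ACLY KO against WT, 0.11 in ACSS2 KO against WT, 0.069 in DKO1 against WT, -0.050 against ACLY KO, -0.035 against ACSS2 KO and -0.16 in the interaction.

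Estimates that changed sign were small and not called. Acot13 in ACLY KO against WT (-0.04) was 0.0043 to 0.025 without WT replicate 1 (0.015), WT replicate 2 (0.025), ACLY KO replicate 2, or both doubtful libraries (0.025), and 0.071 with equal totals, with -0.11 to 0.025 over all libraries left out. Acot8 in ACSS2 KO against WT (0.061) was -0.011 to 0.12 over all libraries left out (below 0 without WT replicate 3) and -0.11 with quantile normalization, and its interaction (0.38) was -0.056 without both libraries. Over all members and alternatives, 819 results kept direction and side of the threshold, 67 lost a call, 36 gained one and 8 changed sign. The lost calls include those under the study's limits, where the estimates were the same and every call was lost to the stricter threshold.

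Of 18 same-numbered pairs of libraries, 5 had deviations correlated above 0.1 (range -0.43 to 0.45). Pairs with different numbers were not compared, so whether the replicate numbers pair the libraries was not tested. With the replicate block, Acot1 in DKO1 against WT gained a call (0.34, adjusted p = 0.035), and no other member changed its call.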

Other observations

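Across the 14 libraries, Pearson's r of log2 values between members is given as a description over libraries that share genotypes and a length trend. Acot1 and Acot2 had r = 0.77, and the 6 pairs among Acot7, Acot8, Acot9 and Acot13 had r of 0.76 to 0.83. The other 8 pairs had r from -0.08 (Acot1 with Acot9) to 0.65 (Acot2 with Acot13).

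The genes whose log2 values followed Acot1 most closely were Ppp1r7 (r = 0.97), Pnrc1 (0.97) and Renbp (0.96). Renbp, the renin-binding protein, had mean normalized counts of 407 (WT), 331 (ACLY KO), 809 (ACSS2 KO) and 575 (DKO1). Acot9 was followed most closely by Rab14, Snx12 and Cdc42 (r = 0.98 each), of which Snx12 is also on the X chromosome and had a mean of 1618 in WT and 2854 in DKO1. Acot13 was followed by Cbr4, Aspscr1 and Kctd2 (r = 0.98 each), and Cbr4 had a mean of 338 in WT and 662 in DKO1.

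Median log2 fold changes differed between the chromosomes of the members. Over 477 tested genes of chromosome 13, which holds Acot12 and Acot13, the median was -0.42 in ACLY KO against WT, -0.15 in DKO1 against WT and 0.31 in DKO1 against ACLY KO. Over 383 genes of the X chromosome, which holds Acot9, it was 0.22 in DKO1 against WT, where the 1014 genes of chromosome 2 (Acot8) had 0.28 and the 809 of chromosome 4 (Acot7) 0.05. Over 433 genes of chromosome 12, which holds Acot1 and Acot2, it was -0.02 in ACSS2 KO against WT and in DKO1 against WT. Their part in the changes of these members was not tested.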
